A study of Mus musculus with 18 samples.

Results

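Tumour-infiltrating CD8+ T cells sorted for Ly108 and labelled Nr4a1 KO were compared with the same sort labelled Nr4a1 WT. The comparison took the 3 libraries of each label, 6 of the 18 mouse libraries of the study, and the 11265 of 13610 listed genes that reached 1 RPKM (reads scaled to gene length and library size) in at least 3 of the 6. The cells were OT-I cells, which carry a transgenic receptor for an ovalbumin peptide and were taken from tumours as Nr4a1-/- or Nr4a1+/+ cells. For comparison, 2 Nr4a1 KO and 2 Nr4a1 WT libraries came from naive CD8+ T cells activated on plates with antibodies to CD3 and CD28 at 2 μg/mL and restimulated for 2 h with PMA and ionomycin. The labels give neither the mouse strain, the form of the Nr4a1 deletion, the tumour nor the day of harvest of the Ly108+ cells, and do not say whether replicates were separate animals, so p-values measure only the spread between these libraries. The question is which transcripts differ in stem-like tumour T cells when the cells lack Nr4a1.

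NR4A1 (Nur77) is an orphan nuclear receptor encoded by an early response gene of T cell receptor signalling, and binds DNA as a monomer at the NBRE motif. Ly108, encoded by Slamf6, marks the stem-like, TCF-1-positive pool of tumour-infiltrating CD8+ T cells, which renews itself and feeds the Tim-3+ terminally exhausted pool. Loss of NR4A factors is known to alter exhaustion and effector function of T cells in tumours.

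The libraries held 15.2 to 15.8 M reads each, as recovered from RPKM and gene length. The first principal component (50.3% of the variance) separated the labels and the second (20.1%) set KO replicate 1 apart from the other 5 libraries. Recovered reads of KO replicate 1 differed from those of KO replicates 2 and 3 by 8.96 and 11.1 in chi-square divided by its degrees of freedom, against 2.68 between replicates 2 and 3. WT replicate 1 likewise differed from WT replicates 2 and 3 by 5.08 and 5.33, against 2.08 between those 2. All 6 libraries carried the markers of stem-like CD8+ T cells: Slamf6 lay at 14.2 to 15.9 RPKM, Tcf7 (TCF-1) at 650 to 768 RPKM, Cd8a at 174 to 179 RPKM and Havcr2 (Tim-3) at 4.69 to 6.76 RPKM. Xist was not listed and Ddx3y and Eif2s3y were read in every library at 33.4 RPKM or more.

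Nr4a1 itself went against its label. The libraries labelled KO held 112, 101 and 102 RPKM of Nr4a1 and those labelled WT 53.9, 46.4 and 45.0 RPKM, with no overlap (log2 difference 1.10, SE 0.08, adjusted p = 0.000434 by limma). All fold changes in the Ly108+ cells are differences of log2(RPKM + 1), labelled KO minus labelled WT, which understate the change of low genes. The gene lies on chromosome 15 at 101254269 to 101274795 (GRCm38). A value per gene cannot show whether part of the transcript was missing, so the groups keep their labels here and each direction below is that of a label, not of a measured loss of Nr4a1 RNA. The paralogs Nr4a2 (127 to 131 RPKM labelled KO, 119 to 127 labelled WT, adjusted p = 0.495) and Nr4a3 (88.3 to 95.1 and 85.6 to 101 RPKM, adjusted p = 0.703) overlapped between the groups. Rxra, whose product pairs with NR4A1, did not pass the threshold (log2 difference 0.04).

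Few genes passed the threshold by limma with all 6 libraries, and most of these differed by little. At an adjusted p below 0.05, 501 of 11265 genes (4.45%) differed, 230 higher (2.04%) and 271 lower (2.41%) in the libraries labelled KO, and 46 (0.408%) differed by at least 2-fold in RPKM + 1. The libraries of the 2 labels did not overlap for any of the 501, as for 3315 of all genes tested (29.4%). The unadjusted p was below 0.05 for 2653 genes (23.6%). The median absolute log2 difference of the called genes was 0.39, and that of all genes tested, signed, was 0.0044. Of the calls, 45.9% were higher in the libraries labelled KO, against 32.4% of 420 when RPKM was rescaled to TPM, that is to a common sum in every library, and 37.8% of 978 and 35.0% of 993 by edgeR and DESeq2 on recovered reads. On recovered reads edgeR called 7.53% of the genes it tested (2.85% higher, 4.68% lower) and DESeq2 7.63% (2.67% and 4.96%). The number of calls rested on the library left out: 1706 without KO replicate 1 (15.1%, 7.16% higher and 7.98% lower), 99 and 118 without KO replicates 2 and 3, and 157, 79 and 78 without WT replicates 1, 2 and 3.

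The 3 largest decreases among all called genes were those of a lysosomal protease, a developmental transcription factor and an antiviral deaminase. Ctse, which encodes cathepsin E, an aspartic protease of endosomes, held 5.07, 4.63 and 4.03 RPKM in the libraries labelled KO and 50.9, 53.0 and 56.0 RPKM in those labelled WT. That is an 11.6-fold difference of means in RPKM, with the groups far apart (log2 difference -3.29, SE 0.08, adjusted p = 8.0e-07). Osr2, an odd-skipped zinc finger factor known from palate and joint development, held 1.57, 1.01 and 1.24 RPKM against 16.1, 15.1 and 17.3 RPKM (-2.92, SE 0.10, adjusted p = 7.63e-06). Its paralog Osr1 was not listed. Apobec3, a cytidine deaminase that restricts retroviruses, held 2.74, 2.03 and 2.54 RPKM against 13.4, 13.7 and 13.3 RPKM (-2.08, SE 0.09, adjusted p = 1.97e-05). The related deaminase gene Apobec1 (0.18) did not pass. Ctse lies on chromosome 1 at 131638306 to 131675505, and Osr2 and Apobec3 on chromosome 15 at 35296098 to 35303305 and 79891659 to 79915906.

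Other genes lower in the libraries labelled KO by about 2-fold or more had varied roles. Slc15a2, which encodes a proton-coupled peptide transporter, fell from 8.83 ± 0.261 to 2.64 ± 0.149 RPKM (SD, n = 3 each). Cbx7, a Polycomb chromobox protein, fell from 23.9 ± 0.708 to 9.02 ± 0.153 RPKM, and overlaps the end of Apobec3 by annotation. Pou6f1, a POU-domain transcription factor gene 0.654 Mb from Nr4a1, fell from 27.8 ± 1.73 to 11.1 ± 0.463 RPKM and overlaps the predicted gene Gm27209. No source used here says whether counting used strand, so reads of such overlapping genes cannot be told apart. The ribosomal protein gene Rpl30 (-1.39), Rab4a (-1.24), a small GTPase of endosomal recycling, Arc (-1.02), an immediate early gene best known in neurons and the inositol phosphatase gene Synj2 (-1.01) were also called, as were Dipk1a (-1.32) and the small nucleolar RNA gene Snord98 (-1.12). Each of these calls held in all 6 fits that left out 1 library. Snord98, a very short gene, only just passed by edgeR on recovered reads (adjusted p = 0.0404) and got no adjusted p from DESeq2. The acute-phase gene Orm2 fell too (-1.12), and its call was lost without WT replicate 1, 2 or 3 (adjusted p up to 0.0796), with differences of -1.07 to -1.17 there.

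The 14 named genes with the largest increases include 3 pseudogenes and 3 genes of chromosome 15, described separately. Of the others, Spp1 and Dynlt1b kept their calls in all 6 fits that left out 1 library. Spp1, which encodes osteopontin, a secreted phosphoprotein that binds integrins and CD44, held 14.7, 17.6 and 18.9 RPKM in the libraries labelled KO and 6.82, 7.83 and 9.05 RPKM in those labelled WT. The groups did not overlap and the means differed 2.16-fold (log2 difference 1.02, SE 0.12, adjusted p = 0.00566), with the largest adjusted p, 0.0372, among the 6 fits without 1 library. Il1r2, the decoy receptor for interleukin 1, held 10.1, 13.7 and 12.5 RPKM against 4.36, 6.83 and 6.54 (0.93, adjusted p = 0.0284). The neutrophil chemokine gene Cxcl2 (0.89), the chitinase gene Chit1 (1.0), the acute-phase gene Saa3 (1.13), the cyclophilin gene Ppic (1.01) and the collagen gene Col1a1 (1.28) were also higher. None of these 6 calls survived the loss of KO replicate 2 or KO replicate 3, with adjusted p up to 0.109. Col1a1 and Chit1 also lost their calls without WT replicate 1, 2 or 3, Saa3 and Il1r2 without WT replicate 2 or 3, and Ppic without WT replicate 1 or 2.

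Of 13 myeloid marker genes, all listed, 10 reached the filter. Of these, 3 were higher in the libraries labelled KO, against 2.04% of all genes: Lyz2 (lysozyme, 63.3, 91.1 and 88.5 against 40.1, 45.0 and 52.0 RPKM, log2 difference 0.80), Cd14 (0.71) and C1qb (0.62). Lyz2 and C1qb kept their calls only without KO replicate 1 and Cd14 only without KO replicate 1 or WT replicate 1 (adjusted p up to 0.133 in the other fits). Without KO replicate 1, 6 of the 10 were higher and 0 lower, against 7.16% and 7.98% of all genes. On recovered reads 4 of the 10 had a value, and all 4 were higher by edgeR and by DESeq2, against 2.85% and 2.67%. Summed over the markers, the libraries labelled KO held 158 to 203 RPKM and those labelled WT 109 to 117 RPKM, and 8 of the 10 had a positive difference. The macrophage-defining genes Csf1r, Adgre1 and Itgam stayed below 1 RPKM in all 6 libraries, and the granulocyte genes S100a8 (-0.27) and S100a9 (-0.30) did not pass. Il1b, a myeloid cytokine, was also higher (5.49, 3.95 and 5.29 against 2.22, 3.19 and 2.60 RPKM, adjusted p = 0.0386), and lost its call without KO replicate 3 or any 1 WT library (adjusted p up to 0.127). In bulk RNA, more cells of a type and more RNA per cell cannot be told apart, and the part of these markers in the difference of Spp1, Il1r2, Cxcl2, Saa3 and Chit1 was not tested. In the cultured cells Spp1, Il1r2 and Chit1 were tested and higher in the libraries labelled KO (log2 fold change 1.17, 2.82 and 1.61, edgeR), and Cxcl2 and Saa3 were not tested.

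**Figure D1:**
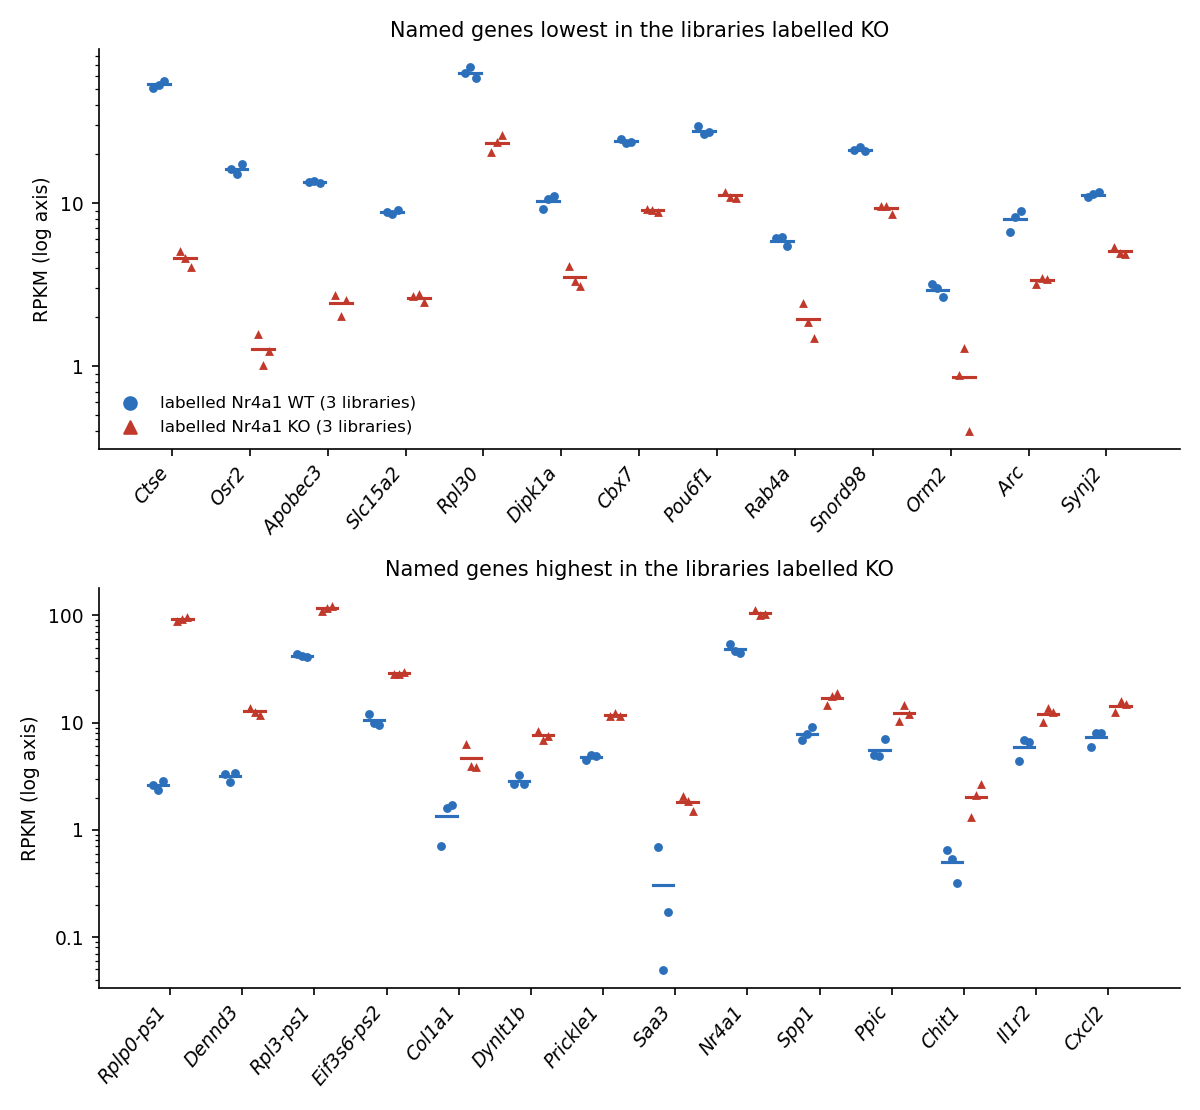
RPKM per library, on a log axis, of named genes with the lowest (upper panel) and the highest (lower panel) log2 difference. Circles are the 3 libraries labelled Nr4a1 WT, triangles the 3 labelled Nr4a1 KO, and bars their means. The rule that picked these genes required groups that do not overlap. Ctse, Osr2 and Rplp0-ps1 are the farthest apart.

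**Figure D2:**
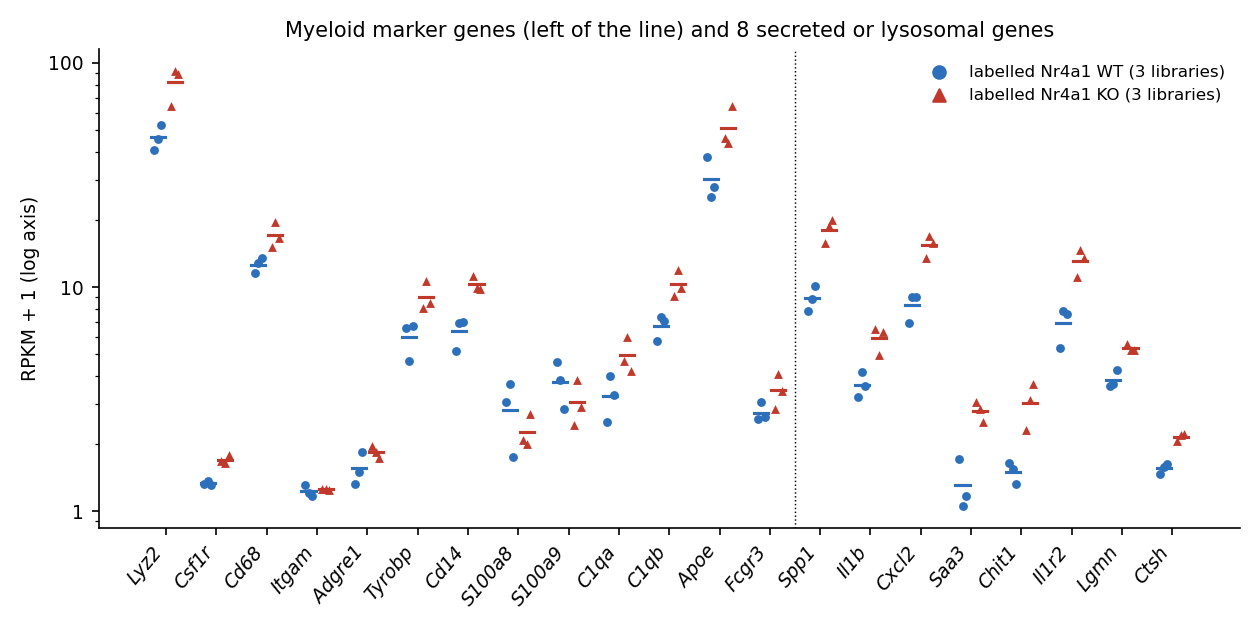
RPKM + 1 per library, on a log axis, of 13 myeloid markers and 8 secreted or lysosomal genes, with circles for libraries labelled WT, triangles for KO and bars for means. Lyz2, Cd14 and C1qb lie higher in the libraries labelled KO, as does Spp1, while Csf1r, Itgam and Adgre1 lie near the floor of 1.

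Markers of other cell types gave few calls, and several of their lists held few tested genes. Dendritic Zbtb46 (0.37), B cell Ighm (0.46) and the innate gene Fcer1g (0.62) were higher, each the only call of its list. Those lists held 2, 3 and 2 tested genes, and 2.04% of all genes were called higher. The call of Ighm held in all 6 fits without 1 library. That of Zbtb46 held only without KO replicate 1 and that of Fcer1g only without KO replicate 1 or WT replicate 2. Zbtb46 also lost its call on the TPM scale, and Fcer1g by DESeq2. The genes Ms4a1, Pax5, Ncr1, Clec9a and Flt3 are not in the table. Of 7 tumour and stromal markers, Col1a1 alone was called by limma, while 5 had an unadjusted p below 0.05, against 23.6% of all genes. By edgeR 2 of the 7 were higher, by DESeq2 1 and by limma without KO replicate 1, 2, against 2.85%, 2.67% and 7.16%. Col1a2 (0.79) was not called (adjusted p = 0.106), and KO replicate 1 held the most of both collagen genes, 6.32 and 3.71 RPKM. Ikzf2, the Helios gene of regulatory and other T cells, fell (-0.39, adjusted p = 0.0178, with up to 0.0885 without KO replicate 2 or 3 or WT replicate 2 or 3) and Foxp3 was not listed. Of 3 erythroid markers tested 0 passed by limma and 2 had an unadjusted p below 0.05. Summed markers of tumour and stroma came to 227 to 233 RPKM labelled KO and 207 to 208 labelled WT.

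Few genes that define the state of a tumour T cell passed the threshold. Of 20 stem-like and naive-memory genes, 1 fell by limma, against 2.41% of all genes, and 0 rose (median -0.05, against 0.0044 for all genes tested). By limma 4 of the 20 had an unadjusted p below 0.05. By edgeR and by DESeq2 1 was higher and 1 lower, and by limma without KO replicate 1, 2 and 1. Over all genes these fits called 2.85% and 4.68%, 2.67% and 4.96%, and 7.16% and 7.98%. Tcf7 (0.13), Slamf6 (-0.03), Ccr7 (-0.15) and Il7r (-0.08) did not pass. Of 20 cytotoxic effector genes 0 passed by limma and 6 had an unadjusted p below 0.05, near the 23.6% of all genes, with 14 positive differences: the cytolytic granule gene Nkg7 lay at 384, 359 and 396 against 330, 315 and 294 RPKM (0.28, adjusted p = 0.0573), and Gzmb, which encodes granzyme B, at 0.22 (adjusted p = 0.0906). On recovered reads 4 of the 20 were higher by edgeR and 5 by DESeq2, against 2.85% and 2.67% of all genes, and by limma without KO replicate 1, 5 were, against 7.16%. Of 14 inhibitory receptor and exhaustion genes 0 passed by limma, edgeR or DESeq2 (Pdcd1 -0.18, Havcr2 -0.28, Lag3 0.17, Tox 0.09). By limma 4 of the 14 had an unadjusted p below 0.05, and 1 passed without KO replicate 1, against 15.1% of all genes.

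No activation-induced transcription factor gene passed by limma, while 5 of 30 genes of T cell receptor signalling did. By limma 0 of 26 activation-induced transcription factor genes passed (8 at an unadjusted p below 0.05), 0 of 16 chemokine receptor, homing and residency genes (4) and 0 of 28 cell cycle genes (6). An unadjusted p below 0.05 was reached by 23.6% of all genes. By edgeR and DESeq2 on recovered reads, 1 and 3 of the first rose, 1 and 2 of the second rose and 1 fell in each, and 1 of the third fell in each. Of all genes, edgeR called 2.85% higher and 4.68% lower, and DESeq2 2.67% and 4.96%. Without KO replicate 1, 3 rose and 3 fell of the first, 3 rose and 1 fell of the second and 1 fell of the third. In that fit 7.16% of all genes were higher and 7.98% lower. Batf (0.30, adjusted p = 0.0837), Junb (0.27) and Jund (0.29) had the highest differences of the 26, and the chemokine receptor gene Cxcr4 lay at 206, 231 and 220 against 172, 193 and 183 RPKM (adjusted p = 0.0639). Of 30 genes of T cell receptor signalling and costimulation, 2 rose and 3 fell (median 0.0086), against 4.45% of all genes called. By edgeR 3 were higher and 3 lower, against 2.85% and 4.68% of all genes, and by DESeq2 3 and 4, against 2.67% and 4.96%. By limma without KO replicate 1, 4 were higher and 8 lower, against 7.16% and 7.98%. Cd3g (0.23) and Cd247 (0.22), which encode the CD3 gamma and zeta signalling chains, rose, and the phospholipase gene Plcg1 (-0.28), Cd6 (-0.25) and the ubiquitin ligase gene Cblb (-0.23), a brake on T cell activation, fell. Cd3g, Cd247, Cd6 and Cblb each kept their call in only 1 of the 6 fits without 1 library, that without KO replicate 1 (adjusted p up to 0.159 in the others), and Plcg1 in that fit and without WT replicate 1 (up to 0.161). Cd3g and Cd247 also lost theirs on the TPM scale.

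Of 46 tested gene segments of antigen receptors, 6 rose and 1 fell in the libraries labelled KO (15.2% called, against 4.45% of all genes), and 1 of the 6 was the immunoglobulin gene Ighm. Trac, the alpha-chain constant gene, rose from 1756, 1720 and 1763 to 2550, 2783 and 2751 RPKM (log2 difference 0.62, SE 0.08, adjusted p = 0.00944). Trbv12-1, the beta-chain variable segment of the OT-I receptor (0.66, adjusted p = 0.0133), Traj33 (0.64) and the constant gene Trbc2 (0.62) rose by a like amount, whereas Trbc1 lay at 0.18 (adjusted p = 0.122). In culture Trac was lower in the libraries labelled KO (-0.30). Trbv12-1 lay there at only 20.3 to 25.6 CPM (counts scaled to library size), beside 732 to 941 CPM of Trac. Receptor segments of the 2 settings are therefore not like for like. Trac and Trbc2 lost their calls without KO replicate 2 or WT replicate 2 or 3 (adjusted p up to 0.0714), and Trbv12-1 and Traj33 kept theirs only without KO replicate 1 (up to 0.114). The delta-chain constant gene Trdc rose (0.37), and the delta-chain segment Trdv1 fell (-0.43). Trdc lost its call without WT replicate 2 or 3 (adjusted p up to 0.0522), and Trdv1 without KO replicate 2 or 3 or WT replicate 2 or 3 (up to 0.125) and by edgeR and DESeq2. These segments were chosen after their values were seen.

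Of 20 cytokine and chemokine genes tested, 4 rose, against 2.04% of all genes, and 0 fell (median 0.18): besides Spp1 the interferon-induced chemokine gene Cxcl10 (35.8, 39.9 and 41.4 against 30.5, 31.0 and 30.1 RPKM), Il10 (0.51) and the lymphotoxin gene Ltb (0.27). By edgeR 3 were higher, by DESeq2 4 and by limma without KO replicate 1, 6, against 2.85%, 2.67% and 7.16% of all genes. Cxcl10, Il10 and Ltb each kept their call only without KO replicate 1 (adjusted p up to 0.177 in the other 5 fits), and Il10 did not pass by edgeR (adjusted p = 0.053) or DESeq2 on recovered reads. Ltb also lost its call at a pseudocount of 0.1, with no filter on low values, and under median-ratio or TPM scaling. Myeloid markers moved the same way as these ligands, and their part here was not tested. Tnf (0.16) did not pass. Of 6 tested osteopontin receptor genes 0 passed by limma and 2 had an unadjusted p below 0.05, against 23.6% of all genes. By edgeR, DESeq2 and limma without KO replicate 1, 1 was lower, against 4.68%, 4.96% and 7.98% of all genes. Cd44 lay at 0.06 and Itga4 at -0.33 (adjusted p = 0.113 by limma).

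Of 16 cathepsin and cystatin genes, 2 rose and 1, Ctse, fell, against 2.04% and 2.41% of all genes, while 15 had a positive difference (median 0.19). Lgmn, which encodes the lysosomal protease legumain, held 4.59, 4.23 and 4.21 RPKM against 2.60, 2.68 and 3.24 (0.48, adjusted p = 0.0301), and Ctsh 1.05, 1.18 and 1.20 against 0.462, 0.576 and 0.629 RPKM (0.46, adjusted p = 0.0339). Neither call held without KO replicate 2 or 3 or WT replicate 1 or 2, nor did that of Ctsh hold without WT replicate 3 (adjusted p up to 0.129). Ctsd (0.26), Ctsl (0.29) and Ctsk (0.86) came near the threshold without passing it. By edgeR 6 of the 15 with recovered reads were higher and by DESeq2 5, against 2.85% and 2.67% of all genes. By limma without KO replicate 1, 8 of the 16 were, against 7.16%, and 1 was lower in each of these fits. Myeloid markers moved the same way, and their part here was not tested. Ctse was thus the only member of the list with a negative difference.

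In energy metabolism limma called 5 increases and 0 decreases in the libraries labelled KO. Of 20 glycolysis genes, 3 rose, against 2.04% of all genes, and 0 fell (median 0.08). By edgeR 4 were higher and 1 lower, against 2.85% and 4.68% of all genes, and by DESeq2 5 and 2, against 2.67% and 4.96%. By limma without KO replicate 1 it was 4 and 1, against 7.16% and 7.98%. Pgk1, which encodes phosphoglycerate kinase, held 70.0, 65.5 and 71.8 RPKM against 38.2, 38.5 and 42.2 RPKM (0.79, SE 0.06, adjusted p = 0.000533), a call that held in all 6 fits without 1 library. Aldolase (Aldoa, 0.31) and triosephosphate isomerase (Tpi1, 0.23) followed with smaller differences, and Aldoa kept its call only without KO replicate 1 or WT replicate 1 (adjusted p up to 0.0762). Of 19 oxidative phosphorylation genes, 2 rose and 0 fell (median 0.10): the complex III gene Uqcrfs1 (0.21) and the complex IV gene Cox4i1 (0.31). By edgeR 5 of the 19 were higher, by DESeq2 4 and without KO replicate 1, 7, against 2.85%, 2.67% and 7.16% of all genes. In each of these fits 0 were lower. Tpi1, Uqcrfs1 and Cox4i1 kept their calls only without KO replicate 1 (adjusted p up to 0.157 elsewhere), and Tpi1 and Uqcrfs1 lost them when RPKM was rescaled to TPM. By limma, edgeR or DESeq2, 0 of 15 mitochondrially encoded transcripts passed. The same held for 14 cholesterol and fatty acid synthesis genes and 11 heat shock and dissociation stress genes. In each of these lists 1 gene had an unadjusted p below 0.05 by limma, against 23.6% of all genes. Without KO replicate 1 the second list held 2 decreases, against 7.98% of all genes. Hspa8 lay at -0.11, Hspe1 at 0.19 and mt-Nd4 at 0.22.

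Calls among interferon and antigen presentation genes were few and went both ways. Of 21 type I interferon response genes, 2 rose and 1 fell, against 2.04% and 2.41% of all genes. By edgeR and by DESeq2 2 were higher and 1 lower, and by limma without KO replicate 1, 5 and 2. Of all genes, edgeR called 2.85% higher and 4.68% lower and DESeq2 2.67% and 4.96%. Limma without KO replicate 1 called 7.16% and 7.98%. Oasl2, an oligoadenylate synthetase-like gene, was near silent in the libraries labelled KO (0.254, 0.342 and 0.322 RPKM) and low in those labelled WT (1.41, 1.77 and 1.61 RPKM, log2 difference -0.99, adjusted p = 0.00184). Its relative Oas1a rose (0.60, adjusted p = 0.0228), as did Rtp4 (0.27), and among the fits without 1 library both kept their calls only without KO replicate 1. Rtp4 also lost its call at a pseudocount of 0.1, with no filter on low values, and under median-ratio or TPM scaling. Of 19 MHC class I and antigen processing genes, H2-Q7, a nonclassical class I gene with close paralogs among which reads may be split, rose (195, 186 and 187 against 147, 134 and 130 RPKM) and Nlrc5, the transactivator of class I genes, fell (62.7, 62.5 and 63.5 against 75.4, 76.7 and 76.4 RPKM, -0.27). H2-Q7 lost its call without WT replicate 2 or 3 (adjusted p up to 0.0546), and Nlrc5 also without KO replicate 2 or 3 (up to 0.0841). These were the only calls of the 19, 1 higher and 1 lower, against 2.04% and 2.41% of all genes. By edgeR 3 were higher and 1 lower, by DESeq2 2 and 1, and by limma without KO replicate 1, 4 and 1. The shares of all genes in these fits are those given for the interferon list. The median difference over the 19 was 0.11, with 16 above 0. Of 20 apoptosis genes, the BCL-2 family effector gene Bax rose (0.32) and 0 fell, against 2.04% and 2.41% of all genes. That call too held only without KO replicate 1. By edgeR 1 of the 20 was higher, by DESeq2 2 and by limma without KO replicate 1, 2, against 2.85%, 2.67% and 7.16% of all genes. In each of these fits 0 were lower. The Y-linked genes Ddx3y (-0.38) and Eif2s3y (-0.23) fell, and kept their calls only without KO replicate 1.

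Calls were unevenly spread over the genome. Chromosome 15, which carries Nr4a1, held 55 calls among 441 tested genes (12.5%), against 4.12% of genes on the other chromosomes, and 12 of the 46 calls of at least 2-fold. Without 1 library the share on chromosome 15 ran from 4.08% against 0.554% elsewhere without WT replicate 3 to 23.8% against 14.8% without KO replicate 1. Chromosomes 5 (56 of 730, 7.67%) and 6 (37 of 566, 6.54%) followed, and the other autosomes and X lay between 2.43% and 4.89%. Within 20 Mb of Nr4a1, 21 of 178 genes were called (11.8%, 10 higher and 11 lower), against 4.33% elsewhere. They include, besides Nr4a1 and Pou6f1, the planar cell polarity gene Prickle1 (11.6, 12.2 and 11.4 against 4.52, 4.94 and 4.93 RPKM, 1.14), Gxylt1 (0.55), which encodes a xylosyltransferase, Yaf2 (0.54), which encodes a Polycomb-associated protein, Pced1b (-0.60), the cytochrome b5 reductase gene Cyb5r3 (-0.50) and the glutamine transporter gene Slc38a1 (-0.44). Slc38a1 did not pass without WT replicate 2 or 3 (adjusted p up to 0.0554). Beyond that distance the same chromosome held Dennd3, an exchange factor gene of Rab GTPases, which rose from 3.32, 2.80 and 3.41 to 13.6, 12.7 and 11.8 RPKM (1.72), and Osr2, Rpl30, Apobec3, Cbx7 and Arc.

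The share within 20 Mb exceeded that elsewhere in each of the 6 fits without 1 library, from 3.93% against 0.64% without WT replicate 3 to 25.3% against 15% without KO replicate 1. By 10-Mb stretch, calls were densest at 30 to 40 Mb of chromosome 15 (8 of 31, with Osr2 and Rpl30), 110 to 120 Mb of chromosome 5 (15 of 78, with Oasl2 and Rplp0) and 90 to 100 Mb of chromosome 15 (10 of 56), among stretches with at least 20 genes tested. The stretch of chromosome 1 that holds Ctse, 130 to 140 Mb, had 9 calls among 58 genes. Spp1 lies at 104435118 to 104441050 on chromosome 5, in a stretch with 10 of 61. Whether the 2 labels share a genetic background is not given in the labels, and differences that follow from Nr4a1 and from linked sequence cannot be told apart in this design.

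**Figure D3:**
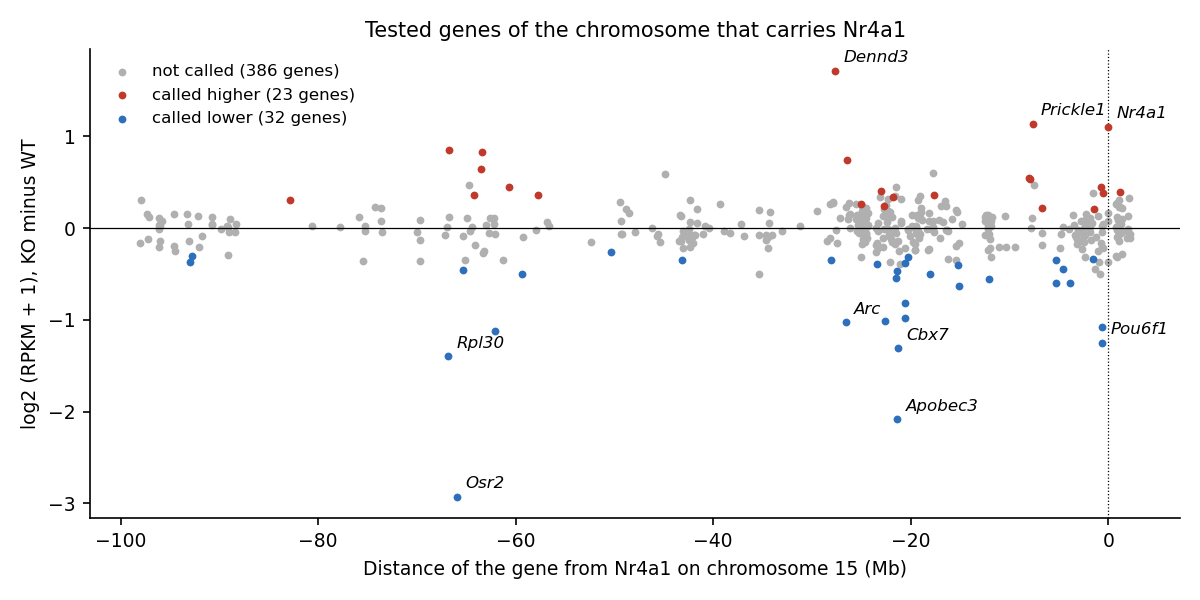
log2 difference (RPKM + 1, labelled KO minus labelled WT) of each tested gene of chromosome 15 against its distance from Nr4a1 in Mb, with called genes in red (23 higher) and blue (32 lower). Calls are spread along the chromosome on both sides of 0, with Osr2 about 66 Mb and Apobec3 about 21 Mb from Nr4a1.

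Pseudogenes gave 13 of the 23 increases of at least 2-fold, though only 51 of 1067 tested pseudogenes were called (4.78%), 39 higher and 12 lower. Of the 51, 32 matched at least 80% of a coding sequence, at a median identity of 96.9%. Reads of such a copy and of its source gene are easily exchanged, so neither value is certain alone. The table lists 8 pseudogenes whose best match of at least 200 bases is Rplp0, the gene of the ribosomal stalk protein P0, and all 8 were higher in the libraries labelled KO. Rplp0-ps1 showed the smallest adjusted p of all named genes, with 87.8, 92.4 and 96.5 RPKM against 2.65, 2.36 and 2.83 RPKM (log2 difference 4.69, SE 0.06, adjusted p = 5.34e-08). Coding positions 602 to 721 of Rplp0, counted from the start codon, are shown with 2 copies because they hold 10 of the bases that tell Rplp0-ps1 from its source. Capitals mark bases that differ between Rplp0 and at least 1 copy in the Rplp0 line, and bases that differ from Rplp0 in the copies (GENCODE M21, GRCm38).
Rplp0: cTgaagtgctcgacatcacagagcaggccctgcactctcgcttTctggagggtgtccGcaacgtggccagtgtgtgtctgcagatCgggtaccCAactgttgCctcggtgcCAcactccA
Rplp0-ps1: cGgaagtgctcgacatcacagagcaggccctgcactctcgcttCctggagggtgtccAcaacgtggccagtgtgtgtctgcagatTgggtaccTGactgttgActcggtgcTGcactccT
Gm8730: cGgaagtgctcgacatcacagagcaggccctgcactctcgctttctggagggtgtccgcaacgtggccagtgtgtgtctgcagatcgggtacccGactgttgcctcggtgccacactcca
Rplp0 lies on chromosome 5 at 115559467 to 115563727, Rplp0-ps1 on chromosome 3 at 93278141 to 93279073 and Gm8730 on chromosome 8 at 102864845 to 102865798. Over the 120 bases Rplp0-ps1 differs at 10 and Gm8730 at 2 positions.

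Rplp0 was lower and its copies higher in the libraries labelled KO. Rplp0 held 1108, 1241 and 1248 RPM (recovered reads scaled to the total of each library) in the libraries labelled KO and 1773, 1852 and 1956 in those labelled WT (RPKM log2 difference -0.63, adjusted p = 0.0074, with up to 0.0528 without WT replicate 2 or 3). Its 8 copies together held 538, 635 and 639 RPM against 84.4, 87.3 and 94.5. Gene and copies summed to 1803 ± 136 and 1949 ± 96.9 RPM (SD, n = 3 each), a pair of ranges that overlap. The copies made up 32.7% to 33.9% of that sum in the libraries labelled KO and 4.50% to 4.61% in those labelled WT. In culture the shares were the other way round, 3.37% and 3.40% labelled KO and 34.4% and 34.9% labelled WT, with 3.22% to 3.58% in the 4 cultured libraries infected with an Nr4a1 or a control retrovirus.

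Rpl3 and its copies showed the same in part. Rpl3-ps1 held 110, 116 and 122 RPKM labelled KO and 43.3, 41.7 and 40.8 labelled WT (1.45, adjusted p = 7.87e-06). The first 120 coding bases of Rpl3 and Rpl3-ps1 show how close the pair is: 1 base differs, in capitals.
Rpl3: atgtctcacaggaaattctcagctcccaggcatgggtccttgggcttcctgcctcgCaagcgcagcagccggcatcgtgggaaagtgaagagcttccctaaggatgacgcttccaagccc
Rpl3-ps1: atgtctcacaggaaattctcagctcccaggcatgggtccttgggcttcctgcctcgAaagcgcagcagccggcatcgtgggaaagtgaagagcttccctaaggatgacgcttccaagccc
Rpl3 lies on chromosome 15 at 80077791 to 80091868 and Rpl3-ps1 on the X chromosome at 13202571 to 13203780. The 5 copies of Rpl3, 2 of them called higher, together held 148 RPM labelled KO and 57.2 labelled WT, while Rpl3 itself lay at 513 against 606 (adjusted p = 0.0948), so that the sums were 660 ± 55.5 labelled KO and 663 ± 13.8 labelled WT. In culture the copies were likewise the larger share in the libraries labelled KO (15.5% against 6.88%). Rpl30 differed from both: its 2 copies held 4.44 and 3.30 RPM while the gene itself held 70.7 labelled KO and 190 labelled WT. The translation initiation factor copy Eif3s6-ps2 (1.38) and, among genes with close paralogs whose reads may be split, the dynein light chain gene Dynlt1b (1.15) were also higher.

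**Figure D4:**
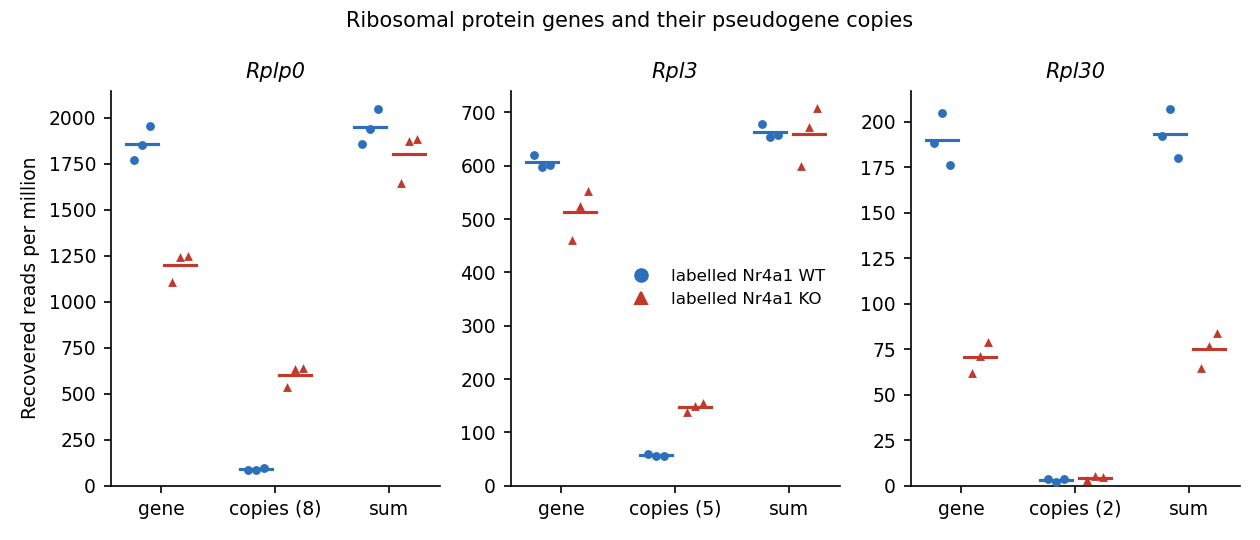
RPM of Rplp0, Rpl3 and Rpl30, of their pseudogene copies together, and of the sum, per library with bars for means (circles labelled WT, triangles labelled KO, axes from 0). For Rplp0 and Rpl3 the copies are higher and the gene lower in the libraries labelled KO while the sums overlap, and for Rpl30 gene and sum are lower.

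The DNA motif of NR4A1 was looked for near the called genes. The NBRE letters AAAGGTCA, or TGACCTTT for the other strand, stood in the 300-base RefSeq promoter window (GRCm38.p6) of 87 of 7902 tested genes with a window (1.10%). They stood in that of 1 of 141 genes called higher (0.709%), Ubac2, and of 4 of 169 called lower (2.37%), Idua, Dennd2d, Paxbp1 and Fv1. Of these, Idua, which encodes a lysosomal glycosidase, had the larger difference (1.26, 1.21 and 1.16 against 2.85, 2.70 and 3.0 RPKM, -0.80). The calls of Ubac2, Dennd2d, Paxbp1 and Fv1 held only without KO replicate 1 among the fits that left out 1 library, and Fv1 also lost its call by edgeR and DESeq2 and Ubac2 on the TPM scale. These genes are named for the motif, after their values were seen, and a match is a description of the letters only.

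In the cultured cells the same labels gave far more calls, 6007 of 14994 genes by edgeR (40.1%), 2762 higher (18.4%) and 3245 lower (21.6%), with 998 of at least 2-fold (6.66%). Of the 501 genes called in Ly108+ cells, 467 were tested in culture, 262 were called and 146 of these had the same sign, that is 29.1% of the Ly108+ calls and 2.43% of the culture calls. The other 116 had the opposite sign. By chromosome the 2 settings differed: on chromosome 15, 32 of 36 genes called in both had the same sign, and on all other chromosomes 114 of 226. On chromosome 5 it was 9 of 29.

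Among the leading genes, Apobec3 (-2.08 in Ly108+ cells, -2.99 in culture), Cbx7 (-1.31 and -1.40), Arc (-1.02 and -3.04), Dennd3 (1.72 and 3.38) and Prickle1 (1.14 and 1.16), all of chromosome 15, were called with the same sign in both, as were Rab4a (-1.24 and -1.65) and Spp1 (1.02 and 1.17). Slc15a2, lower in Ly108+ cells (-1.43), was at 0 CPM (counts scaled to library size) in both cultured libraries labelled KO and at 1.67 and 1.82 CPM in those labelled WT, and was also called. Osr2 fell in both (-2.92 and -0.78). Ctse held 5.63 and 5.88 CPM labelled KO and 5.74 and 6.94 labelled WT in culture and did not pass there (log2 fold change -0.14, adjusted p = 0.519), and Pou6f1 (-0.09) and Synj2 (-0.07) did not either. Oasl2, of chromosome 5, fell in Ly108+ cells (-0.99) and rose in culture (5.17). Nr4a1 itself was higher in the libraries labelled KO in culture too, at 361.4 and 360.2 against 290.3 and 338.1 CPM (log2 fold change 0.20, adjusted p = 0.0171).

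**Figure D5:**
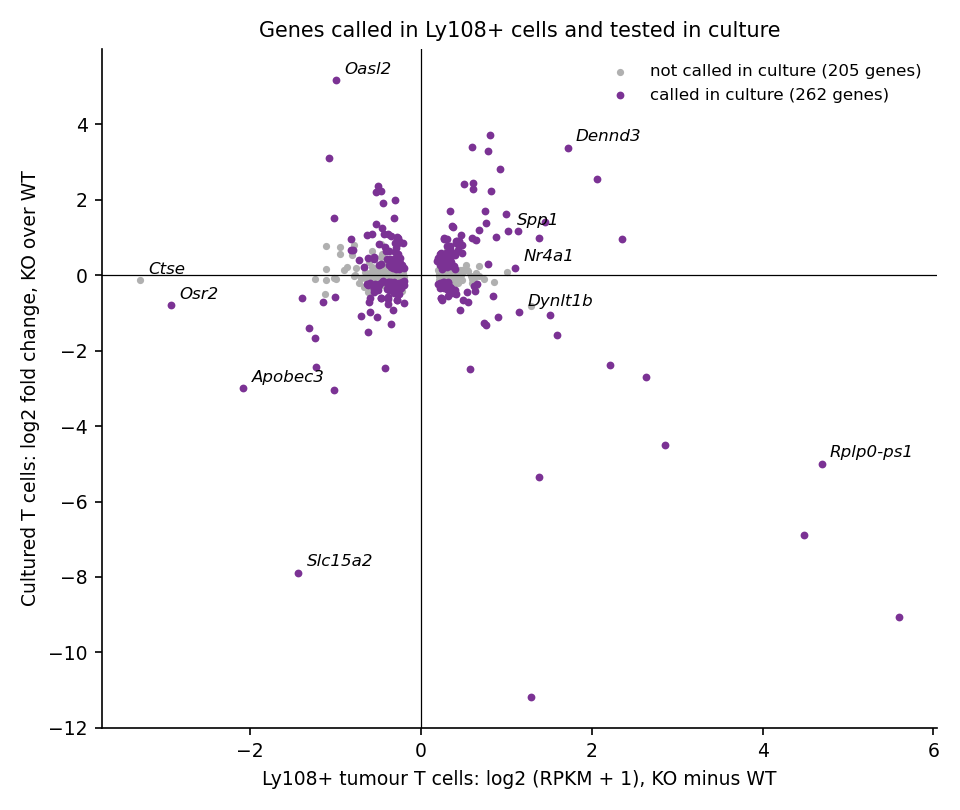
Each point is a gene called in Ly108+ cells and tested in culture: its log2 difference in Ly108+ tumour cells (RPKM + 1) against its log2 fold change in cultured cells, both labelled KO against labelled WT, purple where also called in culture (262 genes). Apobec3, Slc15a2 and Dennd3 lie in the quadrants of equal sign, and Rplp0-ps1 and Oasl2 in those of opposite sign.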

How the data were processed

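The Ly108+ values are RPKM per gene and library, deposited by the authors in a table with their own fold changes and p-values, which were not used. Per the submitters' processing notes, Trim Galore, HISAT2, edgeR, DESeq2 and the mm10 build were used, versions not given; the counter and annotation are not given in the sources used here. Per the labels' protocols, libraries were made by BGI or by Smartseq2. The cultured values are raw counts per gene, deposited by the authors. Gene names are as deposited; positions come from GENCODE M21 (GRCm38) or RefSeq by symbol.

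Genes with at least 1 RPKM in 3 of the 6 libraries were kept, giving 11265 tested and 2345 not tested of 13610. The main test was limma 3.58.1 (R 4.3.3) with a mean-variance trend on log2(RPKM + 1), 3 libraries labelled KO against 3 labelled WT, two-sided, Benjamini-Hochberg over all tested genes, threshold 0.05; no correction was made over a list alone. RPKM divided into whole reads for 98.7% to 98.9% of values under 200 reads (tolerance 0.05 reads) where gene lengths were known (95.6% of genes), and recovered depth was 15.2 to 15.8 M reads. Recovered reads were tested with edgeR 4.0.16 and DESeq2 1.42.0 as alternatives. Cultured libraries (16.9 to 17.1 M counts in those compared) were tested with edgeR's quasi-likelihood test in 1 model of 8 libraries; no test ran across the 2 tables. Pseudogene transcripts were matched to coding sequences with BLAST 2.17.0. The fits were tested on simulated data.

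Named genes were the Nr4a family, Ctse, Osr2, Apobec3 and Spp1, the 14 highest and 14 lowest differences among called genes with a mean of at least 1 RPKM, non-overlapping groups and a symbol that is no clone or model name, up to 8 called genes within 20 Mb of Nr4a1, and up to 4 called members of each list, or the 2 with the smallest p where none was called. A few of these genes are not reported here. Any other gene was named after its values were seen. The genes, lists and tests were chosen with earlier results of these data known. Alternatives were pseudocounts of 0.1 and 0.5, other filters and scalings, recovered reads, the replicate number as a block, the window around Nr4a1 and leaving out each library.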

Additional observations from a re-analysis of the deposited data

Results flagged for a closer look

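For 15 named genes every library labelled KO lay on one side of every library labelled WT in Ly108+ cells and on the other side in culture, with a call in both. Over all genes called in both settings, 116 of 262 had the opposite sign. In Ly108+ cells the libraries of the 2 labels did not overlap for 29.4% of all genes tested. Some of the 15 were named after their values were seen. The difference between the 2 settings was not tested, since their tables were normalised separately. Values are log2 differences, Ly108+ first and culture second. They were 4.69 and -4.99 for Rplp0-ps1, 2.21 and -2.39 for Gm8730 and -0.63 and 1.07 for Rplp0, whose reads may be shared. Genes on chromosome 5 were Oasl2 (-0.99 and 5.17) and Idua (-0.80 and 0.68). Receptor and immunoglobulin segments were Trac (0.62 and -0.30), Trbv12-1 (0.66 and -0.24) and Ighm (0.46 and -0.93). The OT-I segment Trbv12-1 was low in culture (20.3 to 25.6 CPM), so Trac and Trbv12-1 are not like for like between the settings. Dynlt1b, with near-identical paralogs, gave 1.15 and -0.98. Smaller differences were those of Ltb (0.27 and -0.34), Bax (0.32 and -0.39), Tpi1 (0.23 and -0.60), Dennd2d (-0.35 and 0.23), Ubac2 (0.29 and -0.27) and Paxbp1 (-0.22 and 0.28). The Ly108+ calls of these last genes held only without KO replicate 1 among the fits that left out 1 library.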

How the results depend on the processing

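The 501 calls became 978 by edgeR and 993 by DESeq2 on recovered reads, which share 447 and 422 of them, and 78 to 1706 without 1 library. Calls of at least 2-fold (46) became 71 at a pseudocount of 0.1, 130 by edgeR, 100 by DESeq2 and 34 to 64 without 1 library. The share called within 20 Mb of Nr4a1 (11.8%) was 18.6% by edgeR, 18.5% by DESeq2 and 3.93% to 25.3% without 1 library. The share called on chromosome 15 (12.5%) ran from 4.08% to 23.8% without 1 library, and that on the other chromosomes (4.12%) from 0.554% to 14.8%. On the TPM scale the 230 higher calls became 136. The cause of these shifts was not tested. Deviations of each KO library from its group mean were correlated with those of the WT libraries. KO replicates 1 and 2 correlated best with their own number (0.216, and 0.0929 against 0.0917 with WT replicate 3). KO replicate 3 did not (0.00748, against 0.129 with WT replicate 2). Correlations this weak cannot decide whether the numbers pair the libraries. With the replicate number as a block there were 485 calls, 340 of them shared, 45 of at least 2-fold, 12.9% within 20 Mb and 5871 in culture. The total of 501 stayed within 1.5 times of itself under the pseudocounts, filters and scalings tried, and the culture total of 6007 under every alternative run.

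Of the 75 genes chosen by rule, 56 were called, 27 of them in all 6 fits without 1 library and 44 in every other setting that gave a value. No called gene changed direction. Uncalled genes near 0 did: Cd8a gave -0.037 on the TPM scale, and Slamf6 gave -0.072 to 0.0046 without 1 library. The 3 libraries a group limit the precision. Counting error is largest for genes with few reads, such as Oasl2, Saa3 and Il10 near 1 RPKM and the very short Snord98.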
